A study of Homo sapiens with 4 samples.

Results

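WEE1, PKMYT1, CDC25A, CDC25B, CDC25C, CDK1 and CCNB1 form the switch that lets a cell enter mitosis. Transcripts of these 7 genes were taken by symbol from a deposited table of 13743 genes, where each symbol matched 1 row, and were compared between cisplatin-resistant and wild type cells. The kinase CDK1, bound to cyclin B1 (the product of CCNB1), is held inactive by phosphates on a threonine and a tyrosine beside its ATP site. WEE1 adds the phosphate on tyrosine, and PKMYT1, a kinase anchored in the membranes of the ER and Golgi, adds phosphate on threonine and tyrosine. The phosphatases CDC25A, CDC25B and CDC25C remove them, and active CDK1 then feeds back to restrain WEE1 and to stimulate CDC25. After DNA damage, such as the crosslinks that cisplatin makes, the kinases ATR and CHK1 keep the switch off by acting on CDC25 and WEE1.

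The cells were UM-UC-3, a line established from a human urothelial carcinoma and profiled by cap analysis of gene expression (CAGE), which sequences the capped 5′ ends of transcripts. The wild type line gave 2 samples, and a cisplatin-resistant subline induced from it gave the other 2. The resistant cells were grown in DMEM with serum and 5 µM cisplatin (CDDP). Neither the wild type medium nor the clonality of the subline is given in the sources used here. Effects of cisplatin present during growth and of stable resistance therefore cannot be told apart. The labels do not say whether the replicates were separate cultures; the p-values thus measure the spread of these samples alone, and that spread may be technical.

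The samples held between 17800730 and 21189219 reads, recovered from the steps of the deposited CPM (counts scaled to the sum of each sample). All 7 genes were among the 12587 genes that averaged at least 1 CPM over the 4 samples and were tested with limma on log2(CPM + 1); p-values were adjusted (Benjamini-Hochberg) over all of them and held to a threshold of 0.05. Of all tested genes, 33.5% were called higher and 21.6% lower in resistant cells. That split was 4221 to 2724 genes, but 3507 to 3452 under TMM, 3486 to 3484 under median-ratio and 3518 to 3415 under quantile scaling. In all 6945 genes were called, against 4285 without resistant replicate 1 and 4279 without resistant replicate 2. Of 15 urothelial markers the table lists 3, the keratins KRT7, KRT8 and KRT18. KRT7 was higher in resistant cells, and KRT8 and KRT18 were lower, KRT18 reading 306.45 and 309.15 CPM in wild type samples against 90.47 and 85.50 CPM. None of the uroplakins searched, nor GATA3, has a row in the table used here. The markers of leukocytes (1 of 6 listed), fibroblasts (2 of 6) and endothelium (0 of 4) summed to at most 0.7 CPM per list in any sample.

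CDC25A, CDK1 and CCNB1 rose in resistant cells, and WEE1, PKMYT1, CDC25B and CDC25C did not pass the test, so that 3 of 7 genes were called higher and 0 lower (limma). With 33.5% of all tested genes called higher, a count of 3 of 7 is not a result about these genes as a group. The median log2 fold change of the 7 was 0.24, against 0.09 over all tested genes. In 5 of the 7 genes the resistant samples both exceeded the wild type samples, and in none were they both below. Over all tested genes the shares were 46.1% and 32.3%, or 78.5% without overlap in either direction. The 3 calls held in each of the 14 alternative settings tried, which are described with the processing. Because whole cultures were measured, more cells in G2 and mitosis and more transcript per cell cannot be told apart.

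**Figure D1:**
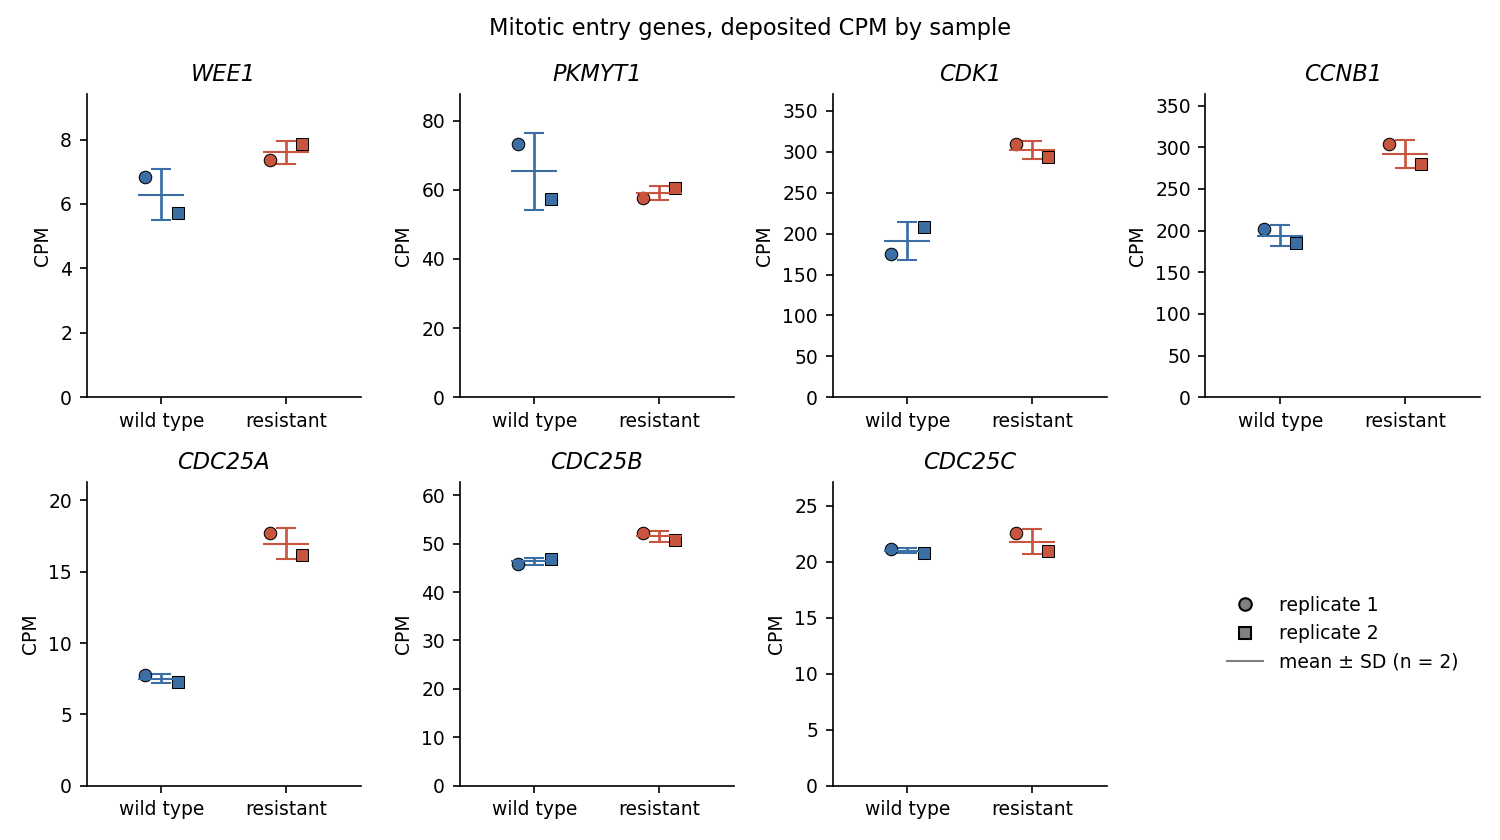
Deposited CPM of the 7 genes in each sample, with 1 panel per gene and a y axis that starts at 0. Circles are replicate 1, squares replicate 2, and bars the mean ± SD (n = 2); the groups overlap for PKMYT1 and CDC25C and for none of the other 5 genes.

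CAGE reads start at promoters, so the sequences around annotated starts are shown for the genes that rose and, for contrast, for CDC25C, which did not pass the test. RefSeq promoter windows (GRCh38.p14, 250 bases before to 50 after a start) were matched for 5 of the 7 genes, the others being WEE1 and PKMYT1. The following 3 motifs, known from cell cycle promoters, were searched on both strands and are in capitals: CCAAT, the box bound by NF-Y; TTTGAA, a form of the cell cycle homology region bound by the MuvB complex with B-MYB; and TTTNGCGC, a form of the E2F site. On the opposite strand CCAAT reads ATTGG and TTTGAA reads TTCAAA. No matches overlapped each other. The windows are CDC25A at chr3:48188368-48188667 (minus strand), CDK1 at chr10:60778228-60778527 (plus strand), CCNB1 at chr5:69166900-69167199 (plus strand) and CDC25C at chr5:138331755-138332054 (minus strand), the most downstream entry where a gene had several.
CDC25A: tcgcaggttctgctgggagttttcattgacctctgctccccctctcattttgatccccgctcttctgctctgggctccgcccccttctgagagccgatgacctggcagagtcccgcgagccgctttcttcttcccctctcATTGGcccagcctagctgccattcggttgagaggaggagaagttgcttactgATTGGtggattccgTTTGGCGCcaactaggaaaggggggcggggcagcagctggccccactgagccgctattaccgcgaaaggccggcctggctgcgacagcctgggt
CDK1: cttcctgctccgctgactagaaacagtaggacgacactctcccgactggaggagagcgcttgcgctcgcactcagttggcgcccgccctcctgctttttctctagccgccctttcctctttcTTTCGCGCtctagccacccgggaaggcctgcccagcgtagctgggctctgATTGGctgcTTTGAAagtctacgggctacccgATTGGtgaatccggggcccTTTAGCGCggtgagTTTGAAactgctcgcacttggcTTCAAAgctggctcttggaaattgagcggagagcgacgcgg
CCNB1: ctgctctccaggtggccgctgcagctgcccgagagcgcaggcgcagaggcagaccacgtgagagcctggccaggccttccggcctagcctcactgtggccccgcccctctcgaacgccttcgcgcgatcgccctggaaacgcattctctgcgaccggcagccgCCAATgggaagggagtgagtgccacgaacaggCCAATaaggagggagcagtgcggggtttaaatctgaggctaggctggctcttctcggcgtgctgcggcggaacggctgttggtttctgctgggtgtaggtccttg
CDC25C: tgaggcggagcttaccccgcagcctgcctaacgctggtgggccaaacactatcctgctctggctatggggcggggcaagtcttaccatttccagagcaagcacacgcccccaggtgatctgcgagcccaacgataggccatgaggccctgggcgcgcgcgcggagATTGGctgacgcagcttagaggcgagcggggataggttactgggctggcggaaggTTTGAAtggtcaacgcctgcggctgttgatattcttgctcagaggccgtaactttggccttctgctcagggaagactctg

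The CDC25A window holds CCAAT at 2 places, 110 and 58 bases upstream of the start, and TTTNGCGC 44 bases upstream. The CDK1 window holds CCAAT at 2 places, TTTGAA at 3 and TTTNGCGC at 2, the nearest upstream E2F form lying 27 bases before the start. In the CCNB1 window CCAAT stands 87 and 55 bases upstream, with no match to the other motifs. The CDC25C window holds CCAAT 85 bases and TTTGAA 30 bases upstream. Of all 35116 promoter windows, 34.6% hold CCAAT, 15.2% TTTGAA and 1.79% TTTNGCGC. Entries not shown differed from these. CDC25C has 4 in all, of which 2 hold none of the motifs and 1 holds CCAAT at 3 places and TTTGAA at 1. The other CDK1 entry holds each motif once. CDC25B has 4 entries, of which 2 hold CCAAT once and none holds the other motifs. These matches are descriptions of letters in the windows. The table gives 1 value per gene, while GENCODE 29 places starts at 4 positions for CDC25A, 8 for CDK1, 7 for CCNB1 and 10 for CDC25C, so the starts in use are not shown.

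The inhibitory kinases did not pass the test. WEE1 (ENSG00000166483.11) read 6.85 and 5.73 CPM in the wild type samples, against 7.36 and 7.86 CPM in the resistant ones. The groups did not overlap, but the nearest samples differed by little. The log2 fold change was 0.24, with a 95% interval of -0.05 to 0.54 (SE 0.13; limma, adjusted p = 0.144). WEE1 was the gene of the 7 with the fewest reads, with 229 from wild type cells and 296 from resistant ones. The ratio of summed reads, 1.21, had an exact (Clopper-Pearson) 95% interval of 1.01 to 1.44, which covers counting error only. WEE1 was not called in any of the 14 alternatives, and its log2 fold change ranged from 0.13, when wild type replicate 2 was left out, to 0.35, when replicate 1 was.

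PKMYT1 (ENSG00000127564.17) read 73.25 and 57.49 CPM in the wild type samples, against 57.72 and 60.56 CPM in the resistant ones. Wild type replicate 1 stood above the other 3 samples, which lay close together. The log2 fold change was -0.13 (SE 0.11; limma, adjusted p = 0.334). Wild type replicate 1 decides this value: without it the log2 fold change was 0.0397, and without wild type replicate 2 it was -0.30 and was called (adjusted p = 0.0111, in a range of 0.0111 to 0.658 over the 14 alternatives). KREMEN2 and PAQR4 overlap PKMYT1 on the opposite strand in GENCODE 29. KREMEN2 was lower (log2 fold change -0.83) and PAQR4 higher (0.40) in resistant cells. The use of strand in counting is not stated in the sources used here, so their reads and those of PKMYT1 may not have been separated.

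Of the 3 CDC25 phosphatases 1 passed the test. CDC25A, the family member that also acts on CDK2 at the start of S phase and that CHK1 marks for destruction, rose in resistant cells. CDC25A (ENSG00000164045.12) read 7.73 and 7.27 CPM in the wild type samples, against 17.74 and 16.18 CPM in the resistant ones. The replicates differed by less than the groups. The log2 fold change was 1.08 (SE 0.11; limma, adjusted p = 0.000106), and 3.33% of all tested genes had a larger one. Behind these values stood 273 wild type and 664 resistant reads, and their ratio was 2.27 (exact 95% interval 1.97 to 2.62). Over the 14 alternatives the log2 fold change lay between 0.98 and 1.17, and each was called. The pseudogene NDUFB1P1, which lies on the opposite strand within CDC25A in the annotation, was lower (log2 fold change -0.41); its reads and those of the gene it copies may not have been separated.

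CDC25B, thought to start the activation of CDK1 at centrosomes, did not pass the test. CDC25B (ENSG00000101224.17) read 45.84 and 46.86 CPM in the wild type samples, against 52.29 and 50.73 CPM in the resistant ones. The groups did not overlap, yet the log2 fold change of 0.15 did not pass (SE 0.073; limma, adjusted p = 0.115). Its 95% interval, -0.02 to 0.32, allows a fold of at most 1.24 on the CPM + 1 scale. CDC25C, the phosphatase that 14-3-3 proteins hold in the cytoplasm after damage, read 21.16 and 20.82 CPM in the wild type samples, against 22.61 and 21.01 CPM in the resistant ones. The groups overlapped. The log2 fold change of CDC25C (ENSG00000158402.20) was 0.05, with a 95% interval of -0.16 to 0.26 (SE 0.091; limma, adjusted p = 0.653); its sign turned under TMM, median-ratio and quantile scaling (-0.0347, -0.0379 and -0.0787). The interval of CDC25A, 0.83 to 1.33, lay apart from those of CDC25B and CDC25C; the difference between the genes was not itself tested. FAM53C, which overlaps CDC25C on the opposite strand, read 67.83 and 50.77 CPM in the wild type samples, against 69.85 and 61.12 CPM in the resistant ones and did not pass (adjusted p = 0.348); without wild type replicate 1 it was called (adjusted p = 0.0181, in a range of 0.0181 to 0.821 over the alternatives).

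CDK1 and its cyclin both rose. CDK1 (ENSG00000170312.16) read 174.91 and 207.94 CPM in the wild type samples, against 309.50 and 293.92 CPM in the resistant ones. The gap between the groups was more than the gap within either. The log2 fold change was 0.66 (SE 0.088; limma, adjusted p = 0.000417). CCNB1 (ENSG00000134057.15) read 202.49 and 184.64 CPM in the wild type samples, against 303.83 and 280.49 CPM in the resistant ones. Its log2 fold change was 0.59 (SE 0.075; limma, adjusted p = 0.000308). By summed reads CDK1 rose 1.58 times (exact 95% interval 1.53 to 1.63) and CCNB1 1.51 times (1.47 to 1.56). CDK1 lies on chromosome 10 and CCNB1 on chromosome 5, and no other gene overlaps either in GENCODE 29.

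Many genes around CDK1 and CCNB1 were higher as well. Of the 10 tested genes on each side of CDK1, in the order of GENCODE 29 and counting rows with the same 4 values once, 17 of 20 were called higher and 0 lower. The median log2 fold change of these neighbours was 0.52, and 7 of the 20 had a larger one than CDK1. A neighbour median at least that high was found for 4.20% of the 11493 genes that had a full window. Around CCNB1, 16 of 20 neighbours were higher and 0 lower, with a median of 0.42, which 9.32% of genes reached. Without resistant replicate 1, as without resistant replicate 2, the count of higher neighbours of CCNB1 was 8, and under the other scalings it was 11. The count of higher neighbours of CDK1 was also lower in at least 1 of the 14 alternatives. The part of these neighbourhoods in the results for CDK1 and CCNB1 was not tested.

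Around CDC25A, on chromosome 3, 7 of 20 neighbours were higher and 2 lower, with a median of 0.12 that 46.8% of genes reached, and 1 of them had a larger log2 fold change than CDC25A. For the genes that did not pass, the medians of the neighbours were -0.14 around WEE1 (chromosome 11), -0.13 around PKMYT1 (chromosome 16), -0.27 around CDC25B (chromosome 20) and 0.10 around CDC25C (chromosome 5). Around CDC25B, 11 of 20 neighbours were lower. These windows were examined after the values of the 7 genes had been seen.

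**Figure D2:**
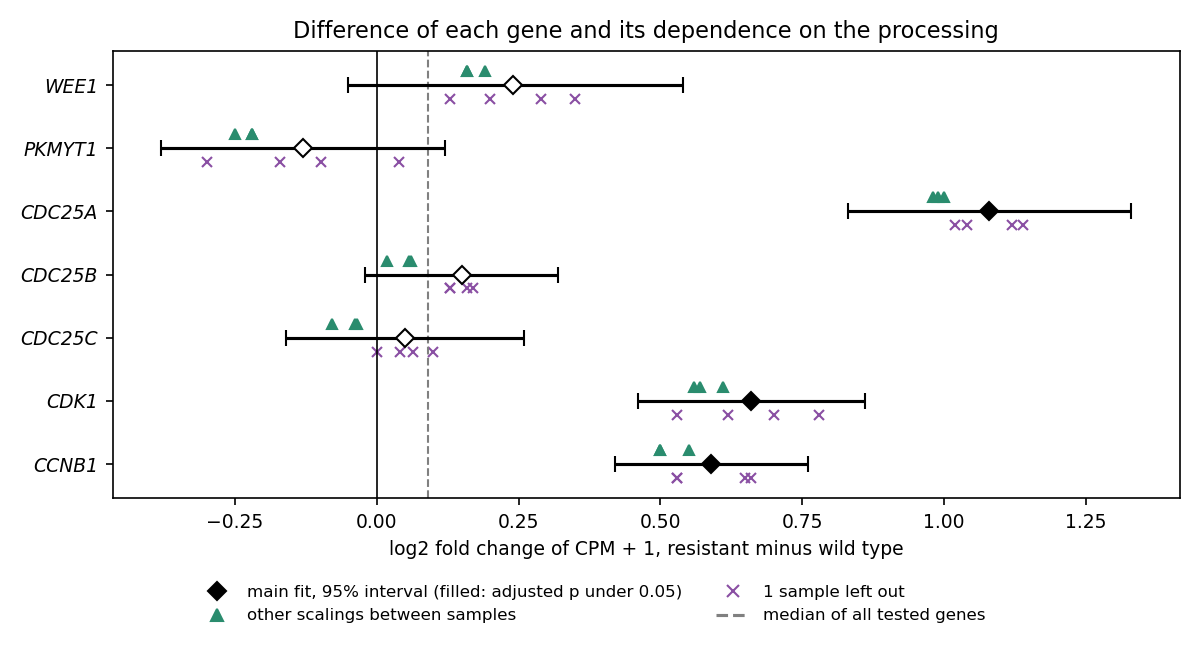
Log2 fold change of CPM + 1 (x axis, resistant minus wild type) for the 7 genes, with the 95% interval of the fit; filled diamonds passed the threshold. Triangles are 3 other scalings and crosses leave out 1 sample; CDC25A, CDK1 and CCNB1 stay right of the median of all genes (dashed, 0.09) throughout, and PKMYT1 and CDC25C fall on either side of 0.

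Ratios of 2 transcripts within a sample do not depend on the scaling between samples. They are compared here only between groups, as values with no test, since 2 samples against 2 cannot give an exact permutation p under 0.333. The ratio of CDC25A to WEE1 was 1.13 and 1.27 in wild type and 2.41 and 2.06 in resistant samples, 1.86 times higher on the log2 average. The ratio of CDC25A to PKMYT1 went from 0.106 and 0.126 to 0.307 and 0.267, or 2.48 times. In each case the resistant samples stood clear of the wild type samples.

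The ratios of the other phosphatases to the kinases differed less between the groups. The ratio of CDC25B to WEE1 was 6.69 and 8.18 in wild type and 7.10 and 6.45 in resistant samples. The ratio of CDC25C to WEE1 was 3.09 and 3.63 against 3.07 and 2.67, so that the groups only just failed to overlap, with resistant samples lower. Against PKMYT1, the ratio of CDC25B was 0.626 and 0.815 in wild type and 0.906 and 0.838 in resistant samples. There too the groups only just failed to overlap, with resistant samples higher (1.22 times on the log2 average). The ratio of CDC25C to PKMYT1 was 0.289 and 0.362 against 0.392 and 0.347, and its groups overlapped. The ratio of CCNB1 to CDK1 was 1.16 and 0.888 in wild type and 0.982 and 0.954 in resistant samples. The wild type samples enclosed the resistant ones.

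**Figure D3:**
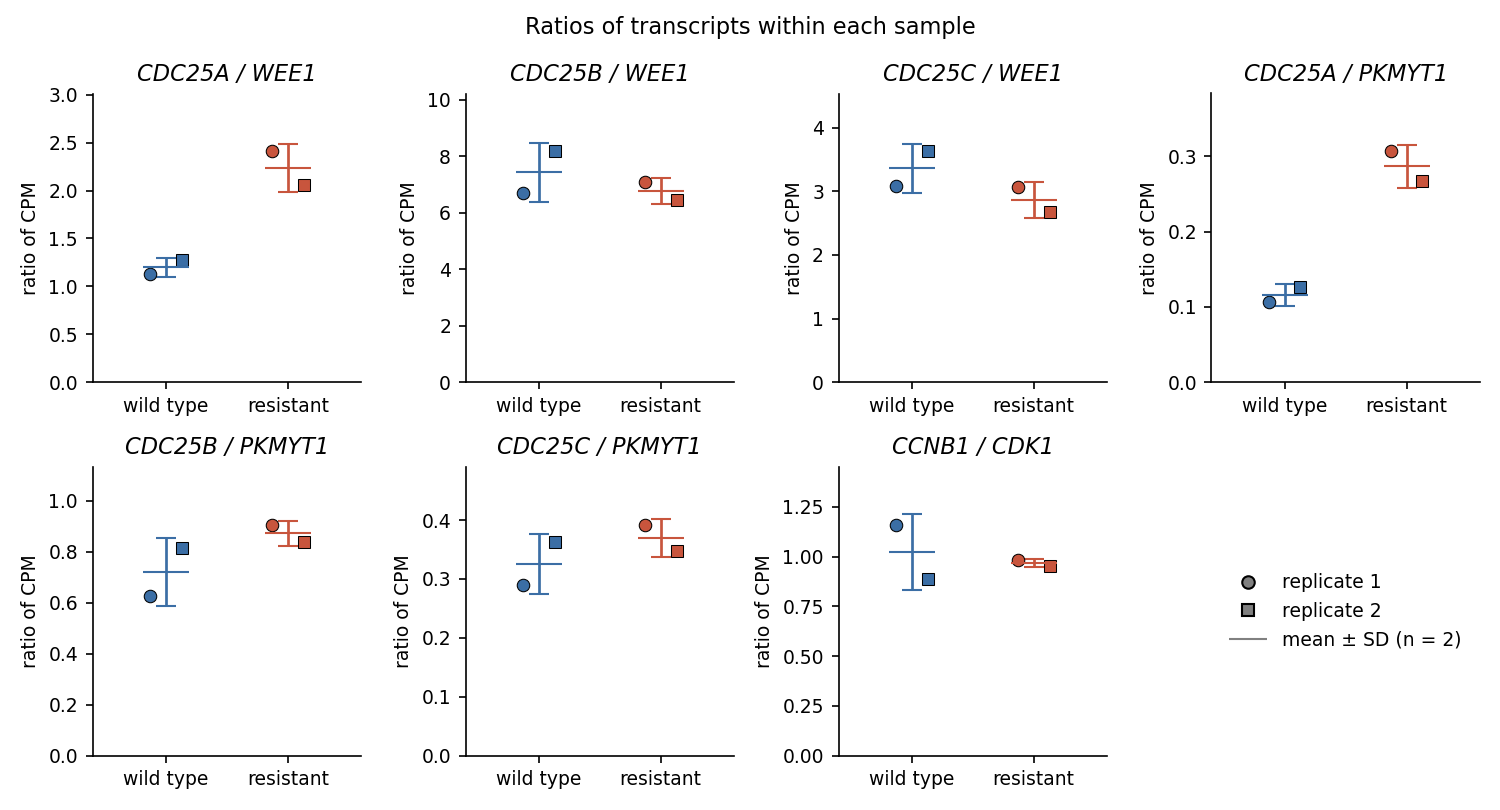
Ratio of CPM of 2 genes within each sample (y axis from 0), 1 panel per ratio, with the mean ± SD (n = 2) of each group. The ratios of CDC25A to WEE1 and to PKMYT1 stand apart between wild type and resistant samples, while the ratio of CCNB1 to CDK1 in resistant samples (0.982 and 0.954) lies within the wild type values.

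The 7 genes are transcribed at different times of the cell cycle, and CDC25A is known as an E2F target of late G1 and S phase, while CDK1 and CCNB1 peak in G2 and mitosis. Beside the shares of all tested genes, 33.5% higher and 21.6% lower, 51.2% of 43 S phase markers were higher (22 genes) and 6.98% lower (3 genes), and 18 had no call. Their median log2 fold change was 0.27. Under TMM, median-ratio and quantile scaling 19, 18 and 19 of them were higher and 9 lower each time. Leaving out resistant replicate 1 left 14 higher, and leaving out resistant replicate 2 left 16. Of 52 G2 and M markers, the 7 genes left out, 33 were higher (63.5%), 3 lower (5.77%) and 16 without a call, with a median of 0.37. Under the 3 scalings 28 to 29 were higher and 3 lower. Without resistant replicate 1 and without resistant replicate 2, 1 was lower each time, and 25 and 24 were higher. The summed level of the S phase markers was 3161.3 and 3234.9 CPM in the wild type samples, against 3792.2 and 3714.0 CPM in the resistant ones. That of the G2 and M markers was 6836.7 and 6624.2 CPM against 8490.1 and 8401.0 CPM. Every marker of both lists was in the table, and their part in the results for the 7 genes was not tested.

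Among these markers the 7 genes were spread from the bottom to the top. CDC25A exceeded the log2 fold change of all but 1 of the 43 S phase markers, DTL, the substrate receptor of the CRL4 ubiquitin ligase. CDK1 was exceeded by 11 and CCNB1 by 14 of the 52 G2 and M markers. WEE1 was exceeded by 33, CDC25B by 35, CDC25C by 41 and PKMYT1 by 49 of them. By the ratio of mean CPM, HJURP, the chaperone of the centromeric histone, rose 2.43 times, the tubulin TUBB4B 2.03 times and the proliferation marker MKI67 1.94 times. Of S phase markers, DTL rose 2.19 times, the licensing factor CDC6 1.64 times and the uracil glycosylase UNG 1.63 times. Ratios given as times for the regulators that follow are of the same kind.

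**Figure D4:**
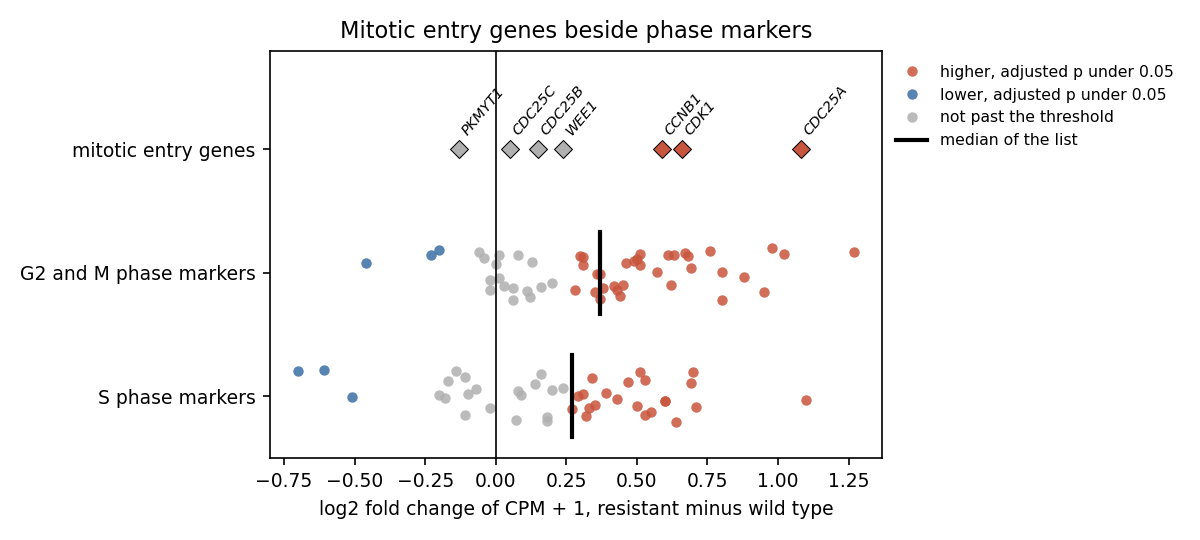
Log2 fold change of CPM + 1 (x axis) for the 7 genes, 52 G2 and M markers and 43 S phase markers; each point is 1 gene, coloured by its call, and the vertical scatter within a row has no meaning. Black bars are the medians of the lists (0.37 and 0.27), and CDK1, CCNB1 and CDC25A lie to the right of both, with WEE1, CDC25B, CDC25C and PKMYT1 to the left.

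Of 6 tested other cyclins, CDKs and CKS proteins, 3 rose and 0 fell. With either resistant replicate left out 1 was called higher, and under TMM, median-ratio and quantile scaling 2 were higher and 1 lower. CCNA2, the cyclin that precedes cyclin B, read 100.40 and 103.86 CPM in the wild type samples, against 128.37 and 128.81 CPM in the resistant ones (limma, adjusted p = 0.00299). CKS2, a small subunit of CDK complexes, rose 1.42 times. CCNB2, the second mitotic cyclin B, read 188.29 and 184.15 CPM against 204.49 and 183.76 CPM, so that its groups overlapped (limma, adjusted p = 0.523). Its log2 fold change of 0.06 turned sign under TMM and median-ratio scaling, and without resistant replicate 1 (-0.019). Of the kinase that puts the activating phosphate on CDK1, 2 of 3 subunits were called higher, CDK7 and CCNH at 1.27 and 1.15 times. That share, 66.7% of a very short list, stood beside the same 33.5%. CCNH kept its call in 7 of 14 alternatives and CDK7 in 11. Under quantile scaling and with either resistant replicate left out 0 of the 3 were called; there the adjusted p of CDK7 was 0.0792 under quantile scaling, 0.105 without resistant replicate 1 and 0.0598 without resistant replicate 2, in a range of 0.0075 to 0.105 over the alternatives.

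Of the loop that drives CDC25 and removes WEE1, 4 of 5 genes rose and 1 fell. The shares of this short list, 80.0% and 20.0%, stood beside 33.5% and 21.6% of all tested genes. The higher calls came to 1 without resistant replicate 1 and to 2 without resistant replicate 2. PLK1, the polo kinase that phosphorylates WEE1 and CDC25, read 105.77 and 101.38 CPM in the wild type samples, against 157.53 and 147.07 CPM in the resistant ones (log2 fold change 0.55, limma, adjusted p = 0.000295). BORA, its cofactor, rose 1.41 times and AURKA, the kinase that switches PLK1 on, 1.24 times. TPX2, which binds and activates Aurora A on the spindle, went the other way, from 301.90 and 339.06 CPM to 233.37 and 230.83 CPM (log2 fold change -0.46, limma, adjusted p = 0.00106). The call of AURKA ended under TMM, median-ratio and quantile scaling, without the trend, and with either resistant replicate left out.

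The list of the branch that protects CDK1 phosphorylation and of PP2A-B55, the phosphatase it opposes, was mixed. Every gene of it called higher encodes a subunit of the phosphatase, as does every gene called lower but ENSA. In the list, 3 of 10 tested genes were higher and 3 lower, beside 33.5% and 21.6% of all tested genes. Without resistant replicate 2, 2 were higher, and 2 were lower with either resistant replicate left out. MASTL, the Greatwall kinase at the head of the branch, read 36.46 and 37.78 CPM in wild type samples, against 40.40 and 42.13 CPM in resistant ones. It did not pass (limma, adjusted p = 0.135). ENSA, on the same side as MASTL, fell from 263.52 and 236.63 CPM to 162.54 and 154.09 CPM (log2 fold change -0.65, limma, adjusted p = 0.000186). Of the 3 tested B55 subunits, PPP2R2D rose 1.90 times, PPP2R2C was 2.23 times higher in wild type, and PPP2R2A read 53.90 and 56.89 CPM in wild type samples against 52.86 and 52.08 CPM, without a call (limma, adjusted p = 0.40). The catalytic subunit PPP2CA rose 1.49 times.

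Of the checkpoint kinases that act on CDC25 and WEE1, 3 of 8 were higher and 1 lower. The share higher, 37.5%, was near the 33.5% of all tested genes, and the share lower was 12.5% beside 21.6%. Without resistant replicate 1, as without resistant replicate 2, 2 were higher and 0 lower; 0 were lower also without wild type replicate 1 and without the trend, and 2 under median-ratio and quantile scaling. CHEK1, which encodes CHK1, read 33.89 and 33.70 CPM in the wild type samples, against 43.75 and 43.76 CPM in the resistant ones (log2 fold change 0.36, limma, adjusted p = 0.0040). ATR rose 1.35 times and MAPK14, the p38 kinase above MAPKAPK2, 1.44 times. Of the 14-3-3 proteins that bind phosphorylated CDC25, 2 of 6 were higher and 2 lower, or 33.3% each, near the 33.5% and 21.6% of all tested genes. The higher genes, YWHAG and YWHAH, both lost their call under TMM and median-ratio scaling, without the trend, and with either resistant replicate left out, and 1 of them lost it under quantile scaling. With either resistant replicate left out 1 gene was lower. YWHAZ fell from 958.73 and 845.46 CPM to 452.68 and 426.50 CPM. Of its 20 neighbours 14 were lower and 0 higher, with a median of -0.39. A neighbour median at least that high was found for 96.0% of genes, and the part of this neighbourhood was not tested.

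The F-box proteins that send WEE1 and CDC25A to destruction moved apart. BTRC read 17.93 and 19.99 CPM in the wild type samples, against 24.49 and 22.64 CPM in the resistant ones (limma, adjusted p = 0.031). Its paralog FBXW11 read 41.95 and 43.61 CPM against 27.51 and 27.64 CPM (log2 fold change -0.62, limma, adjusted p = 0.000324). The call of FBXW11 held in each of the 14 alternatives and that of BTRC in 8 of them. Of the 20 neighbours of FBXW11, 6 were higher and 8 lower. In the list as a whole, 2 of 7 genes were higher, BTRC and the deubiquitinase USP13, and 2 lower, FBXW11 and CSNK2A1, a catalytic subunit of casein kinase 2. These shares, 28.6% each, were near those of all tested genes. No gene of the list was called higher under median-ratio and quantile scaling, without wild type replicate 1, or without resistant replicate 2, and 1 was under TMM scaling and without resistant replicate 1. With either resistant replicate left out 1 was lower.

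Of genes that drive or restrain the destruction of cyclin B, which ends the switch, 4 of 7 rose, among them the restraining FBXO5. None fell. The share higher was 57.1%, beside 33.5% of all tested genes. Without wild type replicate 2, 1 was called lower. The ubiquitin-conjugating enzymes of the anaphase-promoting complex, UBE2S and UBE2C, rose 2.19 and 1.34 times. Of the 20 neighbours of UBE2S, 0 were higher and 7 lower, with a median of -0.19. A neighbour median at least that high was found for 84.7% of genes, and the part of this neighbourhood was not tested. Of the CDK inhibitors and GADD45 genes, 1 of 4 tested rose and 0 fell, beside 33.5% and 21.6% of all tested genes. CDKN1C, GADD45G and RPRM were also listed but are not among the deposited genes. CDKN1A, which encodes p21, read 65.96 and 55.67 CPM in the wild type samples, against 73.72 and 75.39 CPM in the resistant ones (limma, adjusted p = 0.0232), and kept its call in 7 of 14 alternatives. It lost it under the 3 scalings, without the trend, and without any of wild type replicate 2, resistant replicate 1 or resistant replicate 2. GADD45A, a damage-induced inhibitor of the CDK1 complex, read 53.57 and 51.27 CPM against 45.16 and 47.36 CPM (limma, adjusted p = 0.0756). It was called lower under TMM, median-ratio and quantile scaling.

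Among 15 genes of the complexes that activate or repress transcription of the switch genes, 9 were higher and 1 lower. The shares were 60.0% and 6.67%, beside 33.5% and 21.6% of all tested genes. The higher genes came to 3 without resistant replicate 1, and to 6 without resistant replicate 2 or under quantile scaling; 2 were lower without wild type replicate 2 and under TMM and median-ratio scaling. The lower gene, RBL1, which encodes the p107 subunit of the repressive DREAM complex, read 36.74 and 31.50 CPM in the wild type samples, against 17.93 and 20.62 CPM in the resistant ones (log2 fold change -0.79, limma, adjusted p = 0.000492). FOXM1, an activator of G2 and M genes, read 55.71 and 43.45 CPM in the wild type samples, against 86.70 and 93.82 CPM in the resistant ones (log2 fold change 0.86, limma, adjusted p = 0.000377). MYBL2, which encodes B-MYB, rose 1.24 times. LIN9, a subunit of the MuvB core that binds TTTGAA, rose from 8.12 and 8.76 CPM to 21.52 and 21.74 CPM. Most genes around FOXM1 and LIN9 were higher too, 16 of 20 and 17 of 20 neighbours being called higher. Counts that high were found for 3.39% and 2.07% of the genes with a full window. Around PLK1, 12 of 20 neighbours were higher and 1 lower, with a median of 0.41 that 10.6% of genes reached. The part of these neighbourhoods was not tested. In a mixed list of CDK1 substrates, opposing phosphatases and the cyclin B-interacting ligase CCNB1IP1, 4 of 11 genes were higher and 2 lower. CCNB1IP1 was among the higher ones. The shares, 36.4% higher and 18.2% lower, were near the 33.5% and 21.6% of all tested genes. In this list 2 were higher without resistant replicate 1, and 1 was lower without resistant replicate 2. The PP1 catalytic subunit PPP1CC rose 1.55 times and PPP1CB was 1.37 times higher in wild type.

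**Figure D5:**
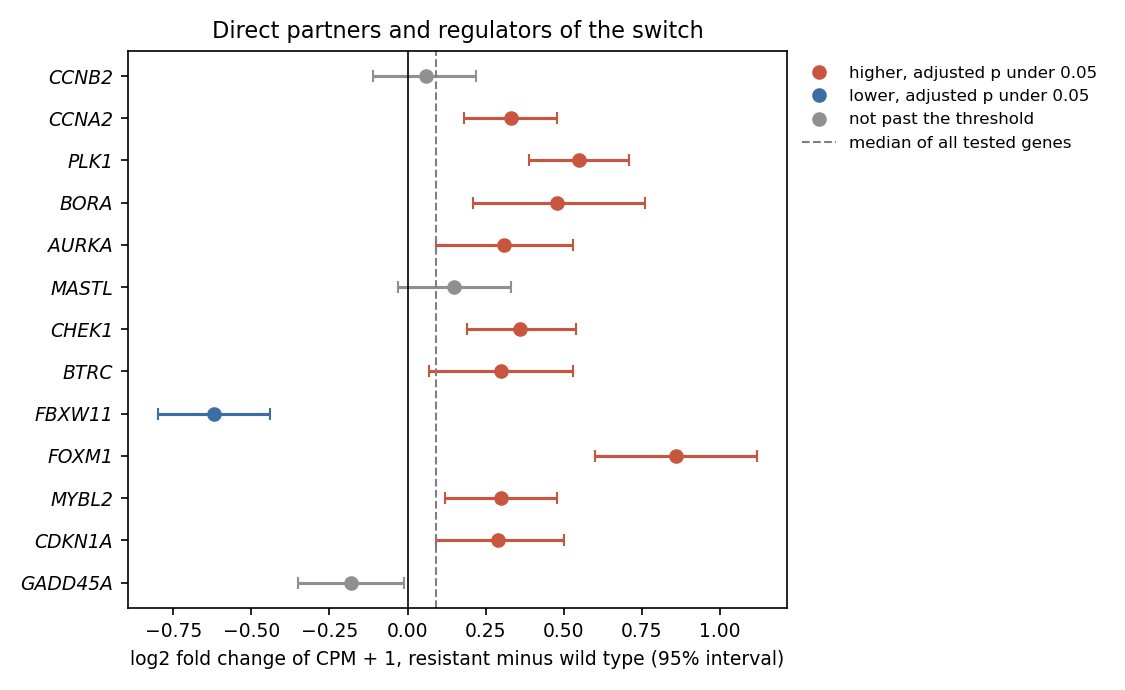
Log2 fold change of CPM + 1 with its 95% interval (x axis) for 13 direct partners and regulators of the switch, coloured by call. FOXM1 (0.86) and PLK1 (0.55) lie farthest to the right, and FBXW11 (-0.62) is the only gene called lower of the 13.

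Over all these lists, 88 of 169 distinct tested genes were higher and 17 lower, or 52.1% and 10.1%, beside 33.5% and 21.6% of all tested genes. The lists were not tested as sets. ENSA, PPP2R2A, YWHAG, YWHAH, USP13, FBXO5, RBL1 and CCNB1IP1 were named after their values had been seen. Several calls ended when 1 resistant sample was left out. Without resistant replicate 1 and without resistant replicate 2, in that order, the adjusted p was 0.0505 and 0.0532 for CCNA2, 0.0522 and 0.0528 for CHEK1, 0.0846 and 0.0564 for BORA, 0.105 and 0.0598 for CDK7, 0.0594 and 0.129 for MYBL2, 0.145 and 0.122 for YWHAQ. It was 0.142 and 0.134 for AURKA, 0.214 and 0.0935 for BTRC, 0.119 and 0.153 for CDKN1A, 0.0963 and 0.0978 for CSNK2A1, 0.0831 and 0.0598 for PAQR4, and 0.244 and 0.164 for CCNH. For all of these but CCNH the higher of the pair was the highest over the 14 alternatives, and the lowest was 0.00219 for CCNA2, 0.00306 for CHEK1, 0.00216 for BORA, 0.0075 for CDK7, 0.00517 for MYBL2, 0.00249 for YWHAQ, 0.000951 for AURKA, 0.0204 for BTRC, 0.00256 for CDKN1A, 0.00133 for CSNK2A1, 0.00473 for PAQR4. For CCNH the range was 0.0149 to 0.309. BTRC was also lost without wild type replicate 1 (adjusted p = 0.0953), and CDKN1A and CCNH without wild type replicate 2 (0.0579 and 0.086).

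For each of the 7 genes, the gene of these lists with the nearest profile was found by the Euclidean distance between mean-centred log2(CPM + 1) values over the 4 samples. With 4 samples in 2 groups such likeness is mostly the size of the difference between groups. CDC25A was nearest to DTL, at a distance of 0.0579, and 5 of all tested genes were at least as near. CDK1 was nearest to BRIP1, a helicase of crosslink repair (0.0473, with 3 genes at least as near), and CCNB1 to PPP2CA (0.0471, with 21). CDC25C was nearest to the ubiquitin ligase G2E3 (0.0243, with 7) and CDC25B to the histone mRNA binder SLBP (0.0363, with 31). WEE1 was nearest to CDKN1A (0.064, with 69) and PKMYT1 to the NF-Y subunit NFYA (0.129, with 224). Without wild type replicate 2, SLBP was called higher (adjusted p = 0.0264, in a range of 0.0264 to 0.458 over the alternatives) and NFYA lower (0.037, in a range of 0.037 to 0.518).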

How the data were processed

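CAGE libraries of 4 samples, 2 wild type and 2 cisplatin-resistant, were compared; sample titles set the groups. The authors deposited CPM values, 1 column per sample, each scaled to its own total over the listed genes. Per the submitters' processing notes, BWA 0.5.9 was among the tools, and hg19 and mm9 among the builds, without a stated role. The sources used here do not give the counting tool, annotation or strand use.

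Each value lies near a whole multiple of 1 step per column (0.0472 to 0.0562 CPM), taken as 1 read. The largest deviation from such a multiple in resistant replicate 1 was 0.00605 CPM, at a step of 0.0472 CPM. No count model was fitted. Differences were fitted on log2(CPM + 1) with limma 3.58.1 (eBayes with a trend, in R 4.3.3), over genes averaging at least 1 CPM, with Benjamini-Hochberg adjustment. The fold changes understate those of low genes. Standard errors are moderated. Intervals of read ratios are exact and cover counting error only. The fit was also run on simulated counts in which few genes changed, as many up as down. The data differ from these, with 55.2% of tested genes called, so that run does not cover this case.

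The members and lists were chosen with earlier results of these data known. Genes named are the 7 members, 13 regulators chosen for their role, the smallest adjusted p per list (2, or 3 for the phase lists), nearest profiles and overlapping genes. Alternatives were other pseudocounts (0.1, 0.5), filters (none, 5 CPM) and scalings (TMM, median-ratio, quantile), no trend, a robust trend, the replicate number as a block, and each sample left out. GENCODE 29 gave overlaps, starts and gene order (99.3% of tested identifiers matched), and RefSeq the promoter sequences; the table itself holds no coordinates.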

Additional observations from a re-analysis of the deposited data

How the results depend on the processing

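CDC25A, CDK1 and CCNB1 kept their direction and call in each of the 14 alternatives, and WEE1 and CDC25B stayed without a call. The sign of CDC25C turned under TMM (-0.0347), median-ratio (-0.0379) and quantile scaling (-0.0787), as did that of G2E3 (-0.0245, -0.0277 and -0.0688) and, under the first 2, of CCNB2 (-0.0326 and -0.0359). The median log2 fold change over all tested genes was 0.0872 in the main fit and 0.00429, 0.0012 and 0.013 under these scalings. The cause of that shift was not tested. Leaving out 1 sample each, the log2 fold change lay between -0.30 and 0.0397 for PKMYT1, -0.019 and 0.13 for CCNB2, and -0.0531 and 0.36 for FAM53C. The log2 difference of the ratio lay between -0.27 and 0.02 for CDC25B to WEE1 and between -0.26 and 0.12 for CCNB1 to CDK1. Of the 7 genes, 0 to 1 were then called lower. The same fits called 4279 to 6790 genes in all, 2556 to 4316 higher and 1636 to 2787 lower, and 63 to 108 of the list genes, in place of 105; they leave 1 group with a lone sample, assumed to vary like the other group. Of 44 other genes named by the rules given with the processing, 18 changed call or sign in at least 1 alternative, in 59 of 615 values. The genes named after their values had been seen, and the keratins, were not in this count. The titles number the replicates 1 and 2 in each group, but same-numbered samples did not deviate together (correlation over tested genes -0.0788); with the replicate block 4320 genes were higher and 2778 lower, and the block changed no call of the 7 genes. WEE1, with 229 and 296 reads per group, is the gene most limited by depth.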
